A study of Mus musculus with 8 samples.

Results

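mmu-miR-135a*, mmu-miR-877 and mmu-miR-680 (here miR-135a*, miR-877 and miR-680) are 3 of the 611 mouse microRNAs (miRNAs) measured on Agilent arrays in obstructed and contralateral kidneys. They were chosen by name because each gave more scaled signal on every obstructed array than on every contralateral array, so the values of that contrast describe them and support nothing by themselves. All 3 were dim in contralateral kidneys, where miR-135a*, miR-877 and miR-680 ranked 15th, 24th and 36th from the dimmest of 222 tested miRNAs. In the same order, 31.25%, 17.5% and 41.0% of their spots stood well above background there. Over all mouse miRNA spots this share was 31.4% to 32.8% on contralateral arrays.

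The mice were of the outbred ICR strain, and 1 ureter was tied off for 7 days in each animal before the kidneys were taken. The contralateral group holds 4 kidneys without a tied ureter, and the obstructed group holds 4 kidneys behind the ligature. No genotype, drug or age is named in the labels, and no kidney from an unoperated mouse was analysed here, so both groups share the surgery and the contralateral kidney worked beside a blocked one. The labels do not say that the kidneys of a group came from separate mice, so the spread between arrays may be partly technical. The RNA was total kidney RNA, 100 ng per array, and in such bulk RNA fewer cells of a type and less RNA per cell cannot be told apart.

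A miRNA is a short RNA cut from a hairpin precursor. One strand of the hairpin, the guide, is loaded into an Argonaute protein and pairs with messenger RNAs through its seed, the bases near its 5′ end, while the other strand is usually degraded. An asterisk marks the less abundant strand in the older naming used by the array. A mirtron is a hairpin that is itself a short intron, released by splicing and not by the nuclease Drosha, and miR-877 is a well-known mammalian example. Ureteral obstruction is a standard model of tubule injury, inflammation and fibrosis.

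The mature sequences listed under these names show that the 3 miRNAs belong to no common seed family. They are given as in RefSeq (GRCm38.p6), matched by name, with bases 2 to 8, the seed, in capitals:
miR-135a* (miR-135a-1-3p): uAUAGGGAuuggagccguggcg
miR-877 (miR-877-5p): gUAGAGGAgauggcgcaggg
miR-680: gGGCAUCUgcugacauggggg
The partner strands of the first pair, which the same arrays also probed, differ from them in composition and in seed:
miR-135a (miR-135a-5p): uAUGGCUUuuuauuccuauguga
miR-877* (miR-877-3p): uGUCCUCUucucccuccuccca

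miR-135a* lies at chr9:106154179-106154200 on the plus strand, within the spans of Glyctk and of the long noncoding gene D030055H07Rik. miR-877 lies at chr17:35960795-35960814 on the minus strand, inside Abcf1, which encodes an ATP-binding cassette protein. RefSeq lists miR-680 at 3 hairpin genes with the same mature sequence, at chr6:129691541-129691561 on the plus strand, chr12:35194849-35194869 on the minus strand and chrX:144297790-144297810 on the plus strand, and none overlaps another gene in that table. The array cannot tell these 3 copies apart. The hairpins, with the mature strand in capitals, show where each miRNA sits in its precursor:
Mir135a-1: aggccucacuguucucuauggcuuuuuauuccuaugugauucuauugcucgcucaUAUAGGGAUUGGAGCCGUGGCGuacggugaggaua
Mir877: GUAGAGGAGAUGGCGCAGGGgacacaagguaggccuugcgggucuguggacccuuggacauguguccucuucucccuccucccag
Mir680-1: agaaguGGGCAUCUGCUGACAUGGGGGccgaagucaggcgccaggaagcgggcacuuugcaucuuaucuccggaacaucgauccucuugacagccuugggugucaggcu
The Mir877 hairpin of 85 bases opens with gu and closes with ag, the letters at the ends of a spliced intron, and its mature strand starts at the first base. In Mir135a-1 the mature strand fills positions 56 to 77 of 90, the 3′ arm.

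All 3 miRNAs are rich in guanine. Guanine made up 45.5% of miR-135a*, 55% of miR-877 and 47.6% of miR-680, against a median of 23.8% over the 179 tested miRNAs whose sequence was matched. Among those 179, 9 had a higher guanine share than miR-135a*, 3 had a higher share than miR-877 and 8 had a higher share than miR-680. Where an array name gave no arm and a single arm was listed under it, that arm was used, as miR-23b-5p for miR-23b. Such a sequence may not be the strand the array probed, which limits every guanine comparison here.

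Before any scaling, the overall brightness of the arrays differed. The 75th percentile of signal, taken over 371 probes that stood above background on all 8 arrays, was 513, 417, 552 and 582 intensity units on contralateral arrays 1 to 4 and 689, 514, 1403 and 1595 on obstructed arrays 1 to 4. Between 228 and 240 miRNAs were above background on contralateral arrays and between 243 and 310 on obstructed arrays. Negative-control spots did not move with the groups in the same way: their 95th percentile lay between 3.74 and 5.18 units over the 8 arrays, and none was marked well above background. In the marker lists given near the end, obstructed kidney 2 did not look like the rest of its group, and results for the 3 miRNAs are given with and without it.

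miR-135a*, the 3′ strand of the Mir135a-1 hairpin, had the largest SD of scaled log2 level of the 3 in both groups. Its signal, summed over its 4 probes and not scaled, was 14.9, 27.6, 43.7 and 24.1 units on contralateral arrays 1 to 4. On obstructed arrays 1 to 4 it was 164, 41.0, 299 and 368 units. Obstructed kidneys 1, 3 and 4 were far above every contralateral kidney, while obstructed kidney 2 was below contralateral kidney 3, so the unscaled groups overlapped.

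After the signals of an array were scaled by that percentile, the log2 level of miR-135a* was -5.11, -3.92, -3.66 and -4.60 in contralateral kidneys and -2.07, -3.65, -2.23 and -2.12 in obstructed kidneys. The scaled groups did not overlap, but the gap between obstructed kidney 2 and contralateral kidney 3 was 0.010 on the log2 scale. The scaled sums of those 2 arrays were 0.0797 and 0.0792, with standard errors over spots of 0.00423 and 0.00591, so their order lay within the spot-to-spot error. The group means were -4.32 ± 0.66 and -2.52 ± 0.76 (SD, n = 4 each), a difference of 1.80 with an SE of 0.45, or 3.49-fold. Without obstructed kidney 2 the difference was 2.18.

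miR-877, the mirtron strand, gave unscaled sums of 29.2, 30.8, 38.6 and 29.7 units on contralateral arrays and 170.3, 49.8, 288 and 262 units on obstructed arrays. Every obstructed kidney was above every contralateral kidney before scaling, and obstructed kidney 2 was again the lowest of its group. The scaled log2 level was -4.14, -3.76, -3.84 and -4.29 in contralateral kidneys and -2.02, -3.37, -2.29 and -2.60 in obstructed kidneys. The groups were 0.39 apart. The means were -4.01 ± 0.25 and -2.57 ± 0.59 (SD, n = 4 each), a difference of 1.44 with an SE of 0.30, or 2.71-fold, and 1.71 without obstructed kidney 2.

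miR-680, a miRNA with no partner strand on this array, had the smallest SD of scaled log2 level in both groups, by a narrow margin over miR-877 in contralateral kidneys. Its unscaled sums were 55.1, 37.6, 40.7 and 45.7 units on contralateral arrays and 181, 81.9, 216 and 349.5 units on obstructed arrays. The groups were apart before scaling. Its scaled log2 level was -3.22, -3.47, -3.76 and -3.67 in contralateral kidneys and -1.93, -2.65, -2.70 and -2.19 in obstructed kidneys, and obstructed kidneys 2 and 3 were close together at the lower end. The means were -3.53 ± 0.24 and -2.37 ± 0.37 (SD, n = 4 each), a difference of 1.16 with an SE of 0.22, or 2.24-fold, and 1.26 without obstructed kidney 2.

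**Figure D1:**
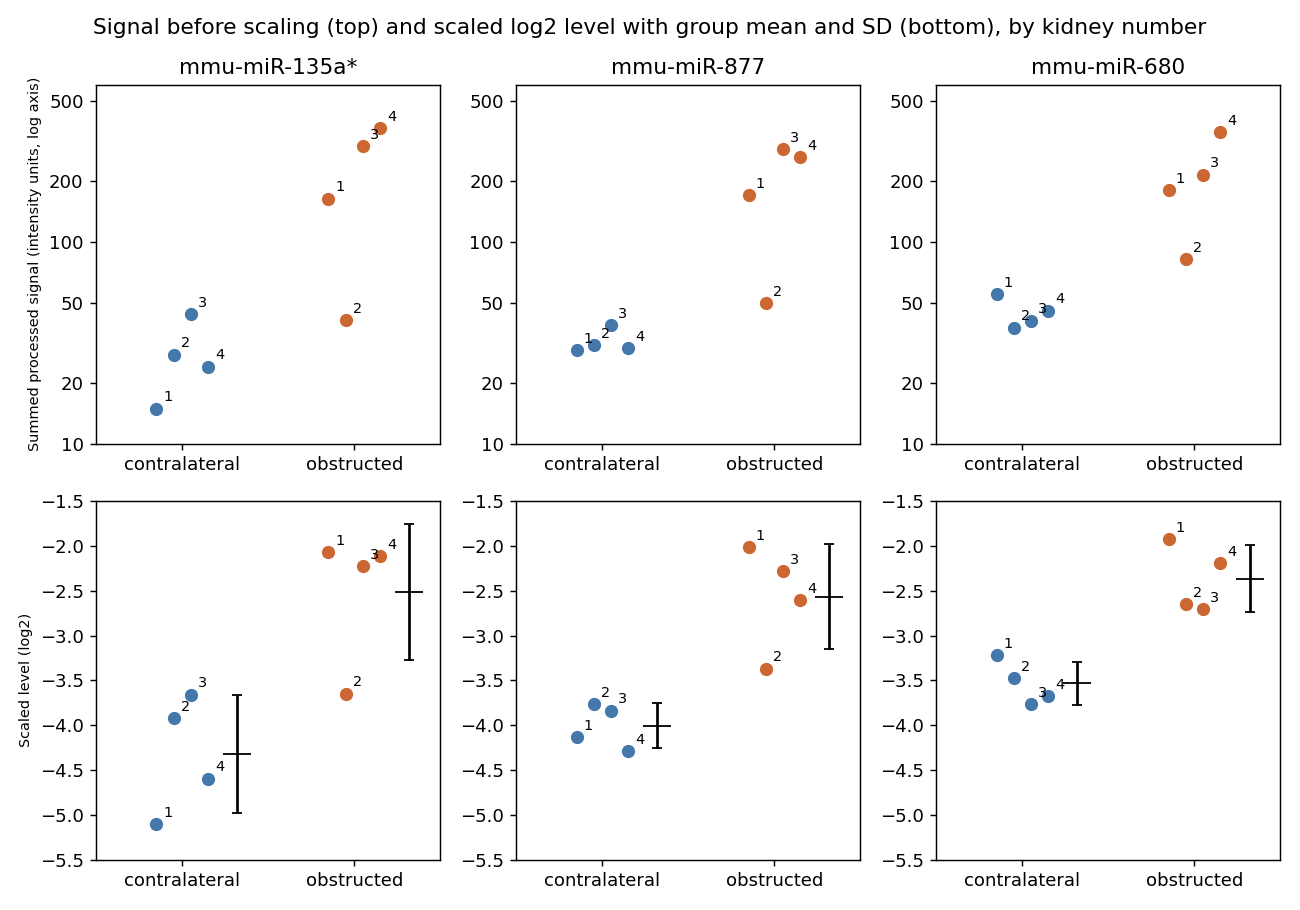
The upper panels plot the summed processed signal of each miRNA (intensity units, log axis) and the lower panels its scaled level (log2), with 1 point per kidney, labelled by kidney number, and the group mean and SD (n = 4) as a bar. Obstructed kidney 2 is the lowest obstructed point in every panel but that of scaled miR-680, and for miR-135a* it lies below contralateral kidney 3 before scaling.

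Among the 222 tested miRNAs, 4 (1.8%) had all obstructed arrays above all contralateral arrays, and the 3 chosen miRNAs with miR-1224 made up that 4. In the limma fit over all 222 miRNAs, 3 (1.35%) were called higher at an adjusted p under 0.05, the same 3, and 30 (13.5%) were called lower. This balance changed with the processing: with no scaling 3 were called higher and 0 lower, with 64 miRNAs at an unadjusted p under 0.05, and without obstructed kidney 2 the counts were 46 and 67. At an unadjusted p under 0.05 there were 81 of the 222. Since these miRNAs were picked on this contrast, neither count is read as a result about them. By size of difference miR-135a* was 2nd, miR-877 was 8th and miR-680 was 12th of the 222, and 17 miRNAs (7.66%) differed by at least 1 upward. Before scaling, 12 of the 222 (5.41%) had no overlap upward, miR-877 and miR-680 among them and miR-135a* not. Of the 222, 93 (41.9%) had any difference above 0, and the median difference was -0.14.

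Just outside the choice were miR-125a-3p, miR-1224 and miR-214. miR-125a-3p, the 3′ strand of a hairpin whose other strand is abundant in many tissues, differed by 1.06 with an SE of 0.33, and its groups overlapped by 0.0016. miR-1224, also a mirtron, differed by 0.88 with an SE of 0.28 and its groups were 0.063 apart. miR-214, a miRNA linked to fibroblasts and fibrosis, differed by 1.44 with an SE of 0.47 and its groups overlapped by 0.38.

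The slide held 2 rows of arrays, with kidneys 1 and 2 of both groups in row 1 and kidneys 3 and 4 of both groups in row 2. In row 1 the differences were 1.65 for miR-135a*, 1.26 for miR-877 and 1.06 for miR-680. In row 2 they were 1.96, 1.62 and 1.27 in the same order. That all are above 0 follows from how the miRNAs were chosen, and only their sizes are given.

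Each of the 3 miRNAs was read by 4 probes of 5 spots each, so 20 spots per array. On obstructed arrays 10, 7, 10 and 11 of the 12 probes were above background, meaning that over 50% of a probe's spots carried the scanner software's mark for signal well above background. On contralateral arrays 3, 5, 5 and 2 probes were. On scaled signal before the floor, the groups of single probes did not overlap for 10 of the 12 probes. These were 2 of miR-135a*, 4 of miR-877 and 4 of miR-680. Many of their contralateral values were not above background. Neither were the values of obstructed kidney 2 on A_54_P3219, A_54_P3220, A_54_P3221 and A_54_P3298. The miRNAs were chosen for a lack of overlap and no share over all mouse probes is given, so this count is not read as a result.

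The 4 probes of miR-135a* fell into 2 pairs. Probe A_54_P3297 was not above background on any array, with signals from -1.57 to 1.32 units on contralateral arrays and from -2.80 to 6.73 on obstructed arrays. Probe A_54_P3298 was above background on obstructed array 4 alone, at 16.3 units, and its scaled value was at the floor on all 8 arrays. Most of the signal of miR-135a* came from the other pair.

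Probe A_54_P3299 gave 7.81, 13.0, 15.98 and 7.62 units on contralateral arrays and 70.8, 18.1, 127 and 154 units on obstructed arrays. Its scaled groups did not overlap, and its difference was 1.57 on the log2 scale. Probe A_54_P3300 gave 11.1, 16.4, 27.0 and 14.9 units on contralateral arrays and 84.9, 22.1, 157 and 191 units on obstructed arrays, a difference of 1.51. On this probe, the brightest of the miRNA, obstructed kidney 2 lay below contralateral kidney 3 both before and after scaling.

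The 4 probes of miR-877 moved alike. Probes A_54_P3219 and A_54_P3220 were not above background on any contralateral array and were above it on 3 of 4 obstructed arrays, with obstructed kidney 2 as the exception. Against the lowest signal of probes above background on those arrays, they came to 1.62-fold and 1.85-fold higher in obstructed kidneys. These are not lower bounds, as obstructed kidney 2 was above background on neither probe and its values were raised to the floor. Probe A_54_P3221 was above background on 1 contralateral and 3 obstructed arrays, and since its 4 contralateral values were all at the floor, its difference of 1.01 is one against the floor. Probe A_54_P3222, the brightest, gave 10.97, 9.92, 13.4 and 9.37 units on contralateral arrays and 50.3, 19.4, 81.9 and 78.6 units on obstructed arrays, a difference of 1.23.

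The 4 probes of miR-680 were nearly equal, with differences from 1.02 to 1.09, and all 4 were above background on all 4 obstructed arrays. Probe A_54_P1936 was the only one of the 12 probes above background on every contralateral array as well. It gave 17.3, 10.2, 11.8 and 14.01 units there and 43.2, 27.8, 50.3 and 94.4 units on obstructed arrays, a difference of 1.02. Probe A_54_P1935 was above background on no contralateral array, at 8.35 to 11.2 units, and was at least 2.03-fold higher in obstructed kidneys.

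**Figure D2:**
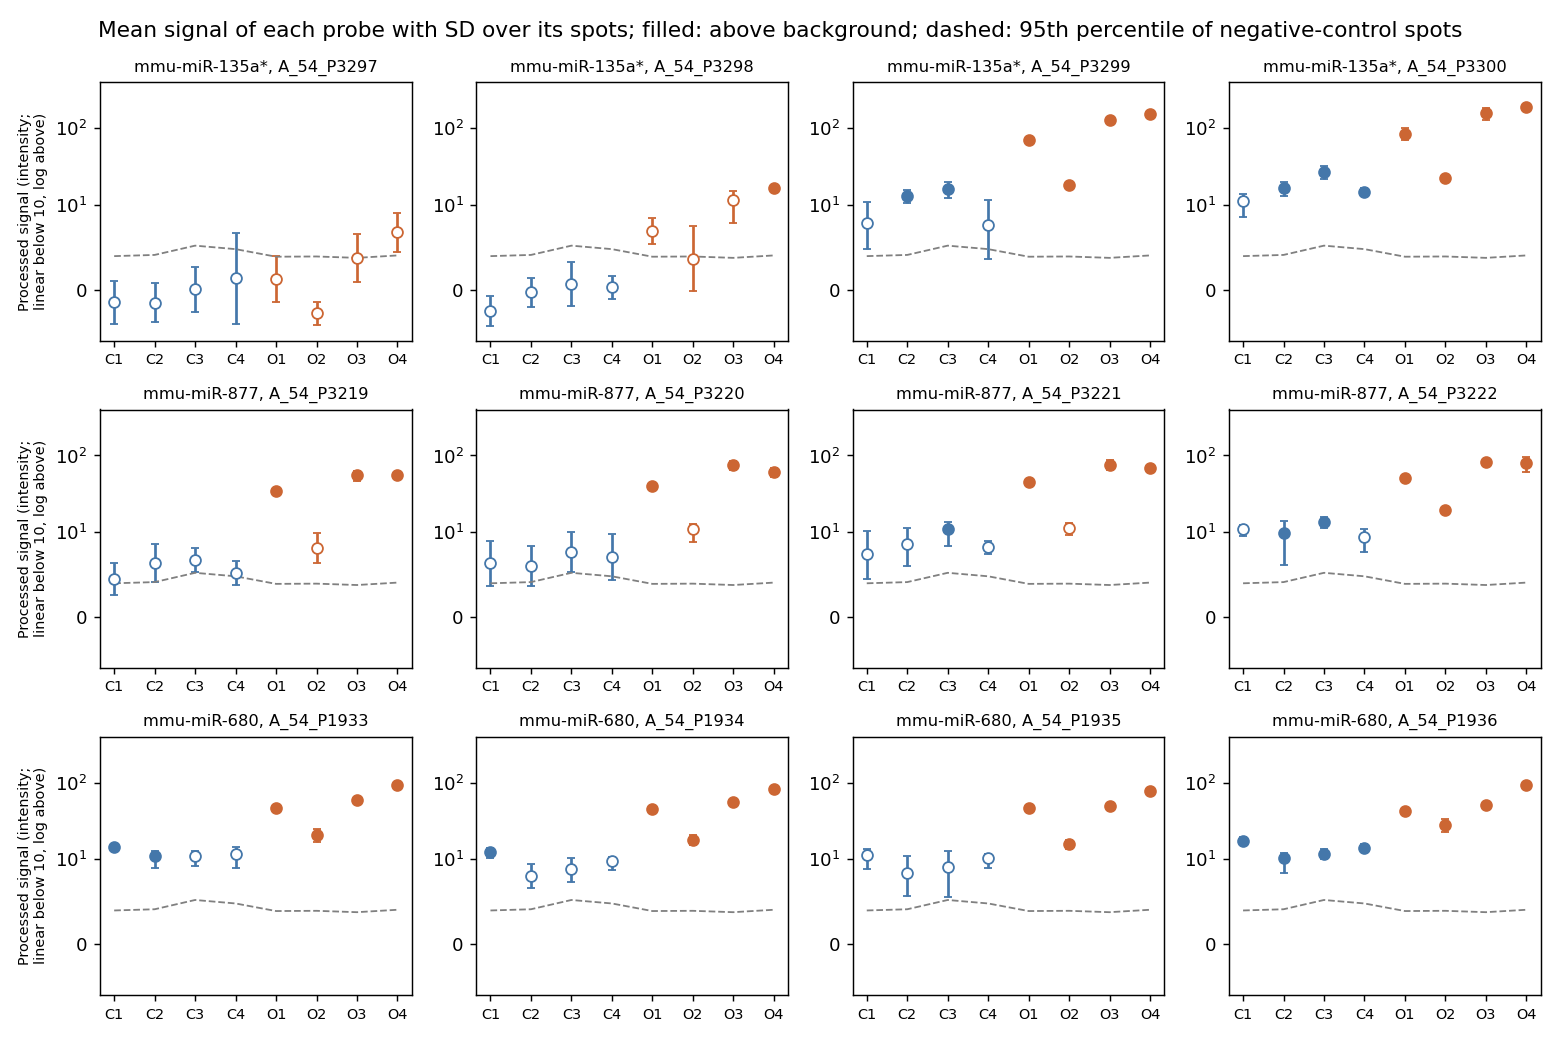
Each panel plots the mean processed signal of 1 probe (intensity units, linear below 10 and log above) on contralateral (C) and obstructed (O) arrays 1 to 4, with the SD over its spots (5, or fewer where outlier spots were left out). Filled points were above background and the dashed line is the 95th percentile of negative-control spots: A_54_P3297 stayed near that line, A_54_P3298 reached 16.3 units on obstructed array 4, and the other 10 probes were above background on at least 3 obstructed arrays.

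The marks of single spots showed the same split. For miR-135a*, 2, 8, 9 and 6 of 20 spots were well above background on contralateral arrays. On obstructed arrays 1 to 3 the numbers were 10, 10 and 12 of 20, and on obstructed array 4 it was 14 of 19. Over all arrays of a group the shares were 31.25% and 58.2%, and the second share was held down by the dim pair of probes. Over all mouse miRNA spots the share was 31.4% to 32.8% on contralateral arrays and 33.1% to 42.4% on obstructed arrays.

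For miR-877, 2, 4, 8 and 0 of 20 spots were well above background on contralateral arrays and 20, 9, 20 and 20 on obstructed arrays. The shares were 17.5% and 86.25%. All of the missing marks in the obstructed group were on obstructed array 2.

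For miR-680, 14 of 19, 7 of 20, 5 of 19 and 6 of 20 spots were marked on contralateral arrays, a share of 41.0%. All 78 spots used on obstructed arrays were marked. Spots of 1 array share their RNA and their hybridisation, so these shares describe arrays and are not replicates.

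**Figure D3:**
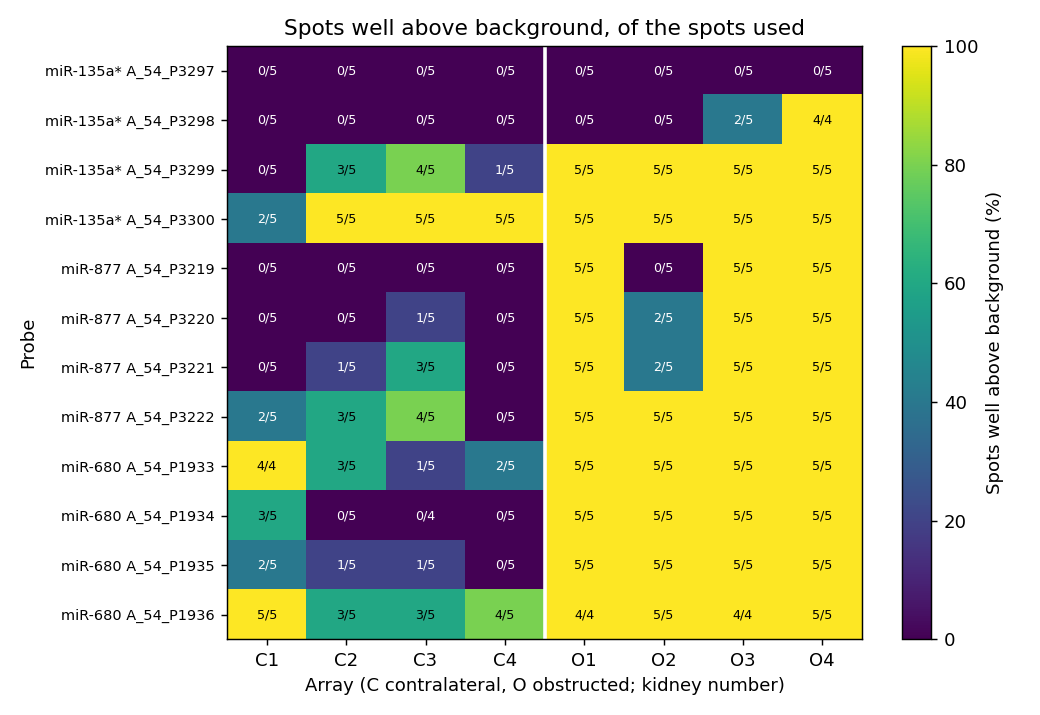
Each cell gives, for 1 probe (rows) on 1 array (columns, contralateral C1 to C4 and obstructed O1 to O4), the number of spots marked well above background of the spots used, coloured by percent. Only the top row, a miR-135a* probe, has no marked spot on any array, and obstructed array 2 has fewer marked miR-877 spots (9 of 20) than the other obstructed arrays (20 of 20).

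No spot of any array was saturated. Outlier marks removed 1 miR-135a* spot on an obstructed array, no miR-877 spot, and 2 miR-680 spots in each group. Another mark, signal significantly over background, was carried by 44 of 80 contralateral and 68 of 79 obstructed miR-135a* spots. Per array this was 10, 10, 12 and 12 contralateral and 17, 13, 19 and 19 obstructed spots. No share over all mouse spots is given for this mark, so these numbers only describe the spots of miR-135a*. It was carried by 79 of 80 and 80 of 80 miR-877 spots and by all 78 miR-680 spots in each group.

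The local background did not follow the groups either. Around the spots of the 3 miRNAs it averaged between 19.8 and 21.85 units on every array, and the array-wide median was 21 on all 8. What differed was the spot itself: the median pixel signal over the local background was 1.81 to 2.21 on contralateral arrays and 2.03 to 6.19 on obstructed arrays. The ranges met through obstructed kidney 2, where the ratio was 2.03 for miR-135a*, 2.05 for miR-877 and 2.57 for miR-680.

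Against the negative controls, the signal of miR-680 stood clearest and that of miR-135a* least clear on contralateral arrays 1, 2 and 4. On contralateral array 3 miR-135a* stood clearest and miR-877 least clear. The mean processed signal of a miR-135a* spot was 0.944, 1.69, 2.11 and 1.26 times the 95th percentile of negative-control spots on contralateral arrays. It was 10.6, 2.63, 20.01 and 23.8 times that percentile on obstructed arrays. For miR-877 the multiples were 1.85, 1.88, 1.86 and 1.56 on contralateral arrays and 10.99, 3.19, 19.2 and 16.3 on obstructed arrays. On contralateral arrays miR-680 was at 3.48, 2.30, 1.98 and 2.39 times, and it reached 11.7, 5.25, 14.5 and 21.7 times on obstructed arrays.

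Spots agreed better where the signal was higher. For the 10 probes above background on at least 3 obstructed arrays, the coefficient of variation over spots was taken on each array, and its median over the arrays of a group was 4.29% to 13.7% in obstructed and 13.7% to 39.1% in contralateral kidneys. For miR-680 it was at most 7.77% on obstructed arrays.

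The 3 differences depended on how background was handled. They came to 2.68, 2.32 and 2.05 for miR-135a*, miR-877 and miR-680 with no scaling between arrays, where the median of all tested miRNAs also moved, from -0.14 to 0.74. With no background taken off the spot signal they shrank to 0.18, 0.067 and 0.025, beside a median of -0.33 over all tested miRNAs. With normexp background correction at an offset of 50 they turned to -0.53, -0.61 and -0.62, beside a median of -0.62 over all tested miRNAs.

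With normexp at an offset of 0, 1 of the 3 was above 0, at 0.019 for miR-135a*, and miR-877 and miR-680 were at -0.16 and -0.21. The median over all tested miRNAs was -0.57 under that setting. The normexp fit of contralateral kidney 2 stood apart: its negative-control spots had a median of 267 units after correction at offset 50, against 59.6 to 61.4 on the other 7 arrays, although their pixel signal before correction was 33 to 35 on all 8. On the 7 other arrays the differences at offset 50 were -0.0024, -0.093 and -0.11, and at offset 0 they were 0.98, 0.77 and 0.66. The medians over all tested miRNAs on those arrays were -0.34 at offset 50 and -0.23 at offset 0. The scaled offset of 50 was itself lower in obstructed kidneys by 0.88 on the log2 scale, because it was divided by larger percentiles there.

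The way probes were combined mattered for miR-135a* and miR-877. The mean of log2 probe values, in which probes at the floor count in full, gave 0.77 for miR-135a*, 0.96 for miR-877 and 1.05 for miR-680. The summed gene signal of the scanner files gave 2.18 for miR-877.

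**Figure D4:**
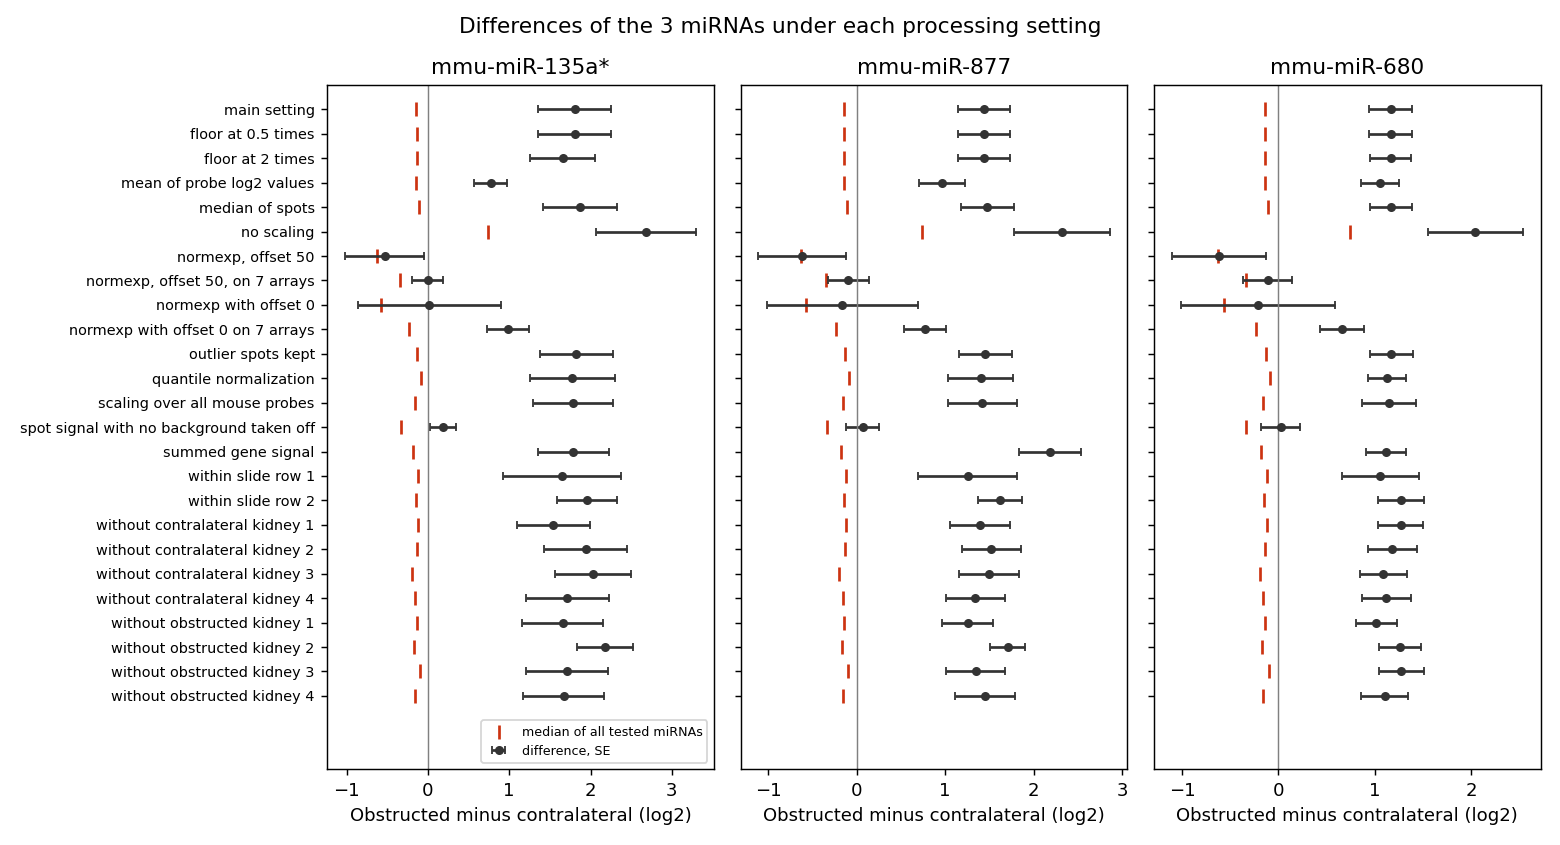
Points give the obstructed minus contralateral difference (log2) of each miRNA with its SE under each processing setting, and red bars the median over all tested miRNAs under that setting. Differences below 0 occur under normexp settings alone, at -0.53, -0.61 and -0.62 with offset 50 on all arrays. With no background taken off the differences lie close to 0, beside a median of -0.33 over all tested miRNAs.

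None of the probed partner strands and relatives was above background on any array. miR-135a, the guide strand of the same hairpin, was at the floor on all 8 arrays, as was miR-135b, a relative of miR-135a from another gene. miR-877* was well above background on no array, and its mean level was -4.77 in contralateral and -5.19 in obstructed kidneys, a difference of -0.42. Of the 4 names on this list, which also held miR-135b*, 3 were on the array. The signal named miR-135a* thus had no measurable counterpart from the other arm of its hairpin.

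Of 4 strands from 3 mirtrons on the array, miR-877 and miR-1224 were tested, and both were higher in obstructed kidneys with no overlap. Over all tested miRNAs this held for 4 of 222 (1.8%). miR-877 was chosen for its lack of overlap, so the count of mirtrons is not read as a result. miR-877* and miR-702 were well above background on no array. miR-1224 was -0.066 to 0.53 in contralateral and 0.59 to 1.85 in obstructed kidneys, and its difference of 0.88 did not pass the limma threshold. The median over the tested pair was 1.16, beside -0.14 over all tested miRNAs, and miR-877 is one of the pair.

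The miRNAs numbered miR-676 to miR-720, the block of names that holds miR-680, had differences in both directions. Of 47 on the array other than miR-680, 24 were above background on no array and 12 were tested. Among the 12, 7 had a difference above 0, none was called by limma, 2 had an unadjusted p under 0.05, a smaller share than the 81 of 222 over all tested, and the median was 0.041. The 4 with the most signal were miR-709, miR-690, miR-720 and miR-689. miR-709 differed by 0.069 (SE 0.27), miR-690 by -1.27 (SE 0.90), miR-720 by -0.70 (SE 0.25) and miR-689 by 0.32 (SE 0.40). Of the 12, miR-685 had the largest difference upward, 1.48 (SE 0.79), and miR-714 and miR-676 followed at 0.68 and 0.58; these 3 were chosen after their values were seen.

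Tested miRNAs of like signal gave another comparison. For each of the 3, they were those whose mean log2 level over the 8 arrays lay within 0.5 of it. Of 40 around miR-135a*, 15 differed upward, none by more than miR-135a*, and their median was -0.13. Of 43 around miR-877, 15 differed upward, 1 by more, and their median was -0.22. Of 42 around miR-680, 18 differed upward, 4 by more, and their median was -0.092. The 3 miRNAs were chosen on this same difference, so their high places in these sets were built in and are not read as a result. They also stand in each other's sets, and like signal on an array does not mean like abundance in the tissue.

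Other guanine-rich miRNAs differed in both directions. The 21 other tested miRNAs with at least 40% guanine had a median difference of -0.052 and ran from -1.11 to 1.11, with 10 above 0 (47.6%). The 155 tested miRNAs below 40% had a median of -0.12 with 43.2% above 0. Of the 21, limma called 1, miR-193*, which was lower by a difference of -1.11 (SE 0.29). Across the 179 miRNAs with a sequence, guanine share and difference had a Pearson correlation of 0.24 and a Spearman correlation of 0.22, and without the 3 these were both 0.18 over 176. The miRNAs share the same 8 arrays and their scaling, so no p belongs to these.

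**Figure D5:**
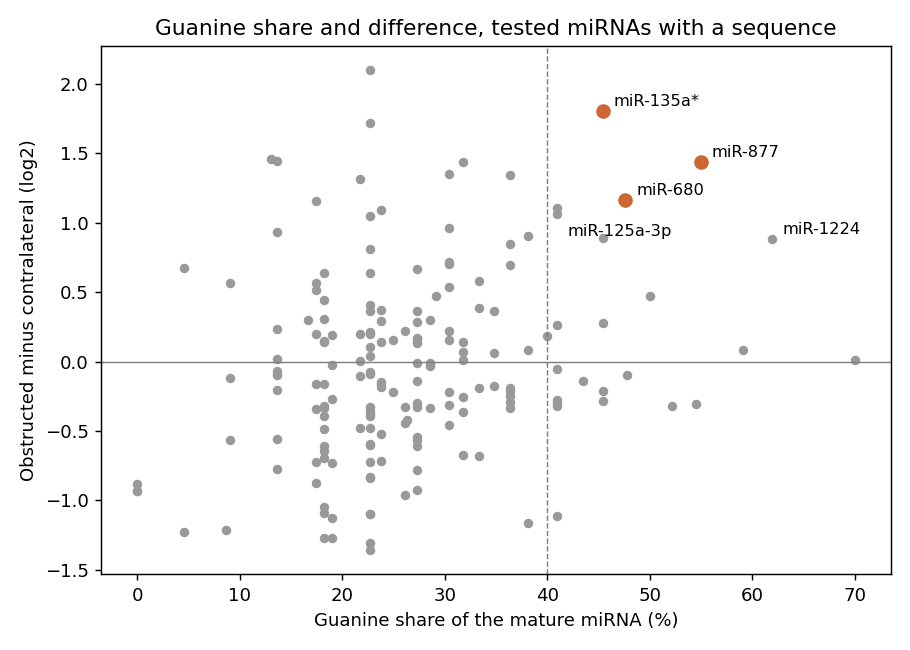
Each point is a tested miRNA with a matched sequence (n = 179), plotted by the guanine share of its mature sequence (%) and its obstructed minus contralateral difference (log2), with the dashed line at 40%. The 3 chosen miRNAs (orange) have differences of 1.16 to 1.80, above all 21 other miRNAs right of the line, which run from -1.11 to 1.11. The 3 were chosen on this difference, so their place is not read as a result.

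The miRNAs whose pattern over the 8 arrays was most like each of the 3 were found by Pearson correlation of log2 levels. For miR-135a* they were miR-17* (0.96), miR-877 (0.95) and miR-15b (0.94). For miR-877 they were miR-135a* (0.95), miR-467b (0.93) and miR-214 (0.93). For miR-680 they were miR-877 (0.88), miR-125a-3p (0.85) and miR-467b (0.82), and miR-135a* and miR-680 were at 0.78. The arrays share a slide and a scaling, and the groups themselves set much of such likeness.

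Markers of other cell types moved in the same kidneys. The 5 tested leukocyte miRNAs, among them miR-223 and miR-142-3p, all had differences above 0, with a median of 1.35. None of the 5 was called by limma and 3 had an unadjusted p under 0.05, beside 81 of the 222 tested, and each of the 7 on the list was above background on at least 1 array. The list's summed scaled level was 1.98 to 2.71 in contralateral kidneys and 1.88 to 7.69 in obstructed kidneys, where obstructed kidney 2 was the 1.88. The 4 fibroblast and fibrosis miRNAs, miR-21, miR-214, miR-199a-5p and miR-199a-3p, were likewise above 0 in difference, with a median of 1.10, none called and 1 at an unadjusted p under 0.05, against the same 81 of 222. Their summed scaled level was 34.5 to 62.6 against 27.8 to 118, and obstructed kidney 2 was the 27.8.

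Kidney tubule miRNAs went mostly the other way on scaled levels. Of 6 tested, 1 had a difference above 0, and the median was -0.66. Limma called 3 lower, miR-192 (-1.27), miR-194 (-1.31) and miR-30a (-0.84), beside 30 of all 222 (13.5%). The others were miR-10b (-0.48), miR-204 (-0.12) and miR-10a (0.0043). With no scaling the first 3 were -0.39, -0.43 and 0.039, and the others were 0.40, 0.76 and 0.89. Only miR-192 and miR-194 thus stayed below 0, and with no scaling no miRNA was called lower by limma. The summed level of the list was 45.9 to 49.1 in contralateral kidneys and 25.1 to 36.0 in obstructed kidneys. miR-215 of the same list was at the floor on all 8 arrays, and miR-122, which defines liver, was above background on none. Of the other lists, endothelium had 1 of 2 tested miRNAs called lower, beside the same 30 of 222. None of the tested erythroid (2), smooth muscle (1), striated muscle (1) and brain (2) miRNAs was called by limma, and the one in striated muscle had an unadjusted p under 0.05. Whether the makeup of the tissue had a part in the differences of miR-135a*, miR-877 and miR-680 was not tested.

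Values by kidney are given here because obstructed kidney 2 differed from its group. Relative to the contralateral mean, obstructed kidneys 1 to 4 were at 2.25, 0.67, 2.09 and 2.20 for miR-135a*. The same values were 1.99, 0.64, 1.72 and 1.40 for miR-877 and 1.60, 0.88, 0.83 and 1.34 for miR-680. The median of the leukocyte miRNAs was 1.93, -0.23, 1.84 and 1.98, and that of the fibroblast and fibrosis miRNAs was 1.95, -0.53, 1.33 and 1.72. The choice of miR-135a*, miR-877 and miR-680 fixed that they lie above the contralateral mean in every obstructed kidney, so the contrast with these lists is not read as a result. In obstructed kidney 2 the tubule list summed to 36.0, below the lowest contralateral 45.9, and the erythroid miRNAs miR-451, miR-144 and miR-486 were 1.27, 1.48 and 1.39 above the contralateral mean. Their levels there, 4.59, -3.30 and -1.87, were still below the highest contralateral levels of 5.46, -2.44 and -1.30. miR-144 was above background on 1 array of each group and was not tested.

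The 21 other guanine-rich miRNAs had medians of -0.27, 0.55, -0.50 and 0.36 in obstructed kidneys 1 to 4, beside -0.14, -0.23, -0.21 and -0.10 over all tested miRNAs. In obstructed kidneys 1 to 4, 7, 15, 7 and 15 of the 21 were above the contralateral mean, against 97, 77, 86 and 101 of all 222. Their part in the values of miR-135a*, miR-877 and miR-680 in obstructed kidney 2 was not tested.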

How the data were processed

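The deposited files were Agilent Feature Extraction output (version 10.1.1 per the submitters' processing notes, 10.7.3.1 per the file headers), with 1 colour and 1 array per kidney, all on 1 slide. The deposited intensity values were background-subtracted and detrended spot signals, per the file headers, with no scaling between arrays. Other deposited columns held marks of 0 or 1 per spot, per the file headers. Outlier spots were left out, spots of a probe averaged, each array divided by its 75th percentile over 371 probes, and the probes of a miRNA summed. A floor of 0.0213 was set and log2 taken, so values at the floor understate a change. miRNAs above background on all 4 arrays of a group were tested (222 of 611) with limma 3.58.1 in R 4.3.3, with Benjamini-Hochberg adjustment. A difference is therefore one relative to the brighter miRNAs on an array.

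A bound on a probe not above background on a whole group took, per array, the higher of its own signal and the lowest signal among probes above background. Values of the other group below the floor were raised to it, and where such values were not above background the result is no bound. The planned normexp and uncorrected alternatives named the mean spot signal, and the median spot signal was used. The number of arrays limits the precision. Sequences and positions come from RefSeq tables of GRCm38.p6 through current names of the array's older ones, and no array coordinates were used. The fit was tested on simulated data. Probe sequences were not used here.

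The miRNAs named were the 3, their partner strands, every tested miRNA higher with no overlap, the 3 uncalled miRNAs higher in obstructed kidneys with the lowest adjusted p, the 3 most correlated with each, and up to 4 miRNAs of each list. The 3 miRNAs and all lists were chosen with earlier results of these data known.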

Additional observations from a re-analysis of the deposited data

Results flagged for a closer look

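Values in groups of 4 arrays were checked for a sample far from the others with Dixon's ratio at its 95% critical value. Of 22 groups checked, 2 passed it, and chance passes about 5% of groups. The scaled log2 level of miR-135a* in obstructed kidney 2 was -3.65, and its gap of 1.42 to the nearest obstructed kidney was 0.90 of the group's range. The number of miR-877 spots well above background was 9 on obstructed array 2, with 20 on each of the other 3 obstructed arrays.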

How the results depend on the processing

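Over 24 alternatives each, the difference was above 0 in 22 for miR-135a*, 21 for miR-877 and 21 for miR-680, and the groups stayed apart in 17, 18 and 19. Those of the 24 that left out 1 kidney or kept 1 slide row could give no other outcome, as the miRNAs were chosen without overlap. These counts therefore do not measure how firm the differences are. Leaving out 1 kidney at a time gave 1.54 to 2.18, 1.25 to 1.71 and 1.02 to 1.28. Values in that order were 2.68, 2.32 and 2.05 with no scaling, -0.53, -0.61 and -0.62 with normexp, and 0.18, 0.067 and 0.025 with no background taken off. The median over all tested miRNAs was 0.74, -0.62 and -0.33 under those settings. Normexp settings chosen after seeing the data gave 0.019, -0.16 and -0.21 at offset 0, and, without contralateral kidney 2, -0.0024, -0.093 and -0.11 at offset 50 and 0.98, 0.77 and 0.66 at offset 0. The mean of probe log2 values gave 0.77 for miR-135a* and 0.96 for miR-877, and the summed gene signal 2.18 for miR-877. Beyond the normexp fit of contralateral kidney 2, which stood apart, the cause of these shifts was not tested. The groups of miR-135a* overlapped by 0.32 and those of miR-877 by 0.023 with quantile normalization, and by 0.50 and 0.038 with scaling over all mouse probes.

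The median over the 24 guanine-rich miRNAs, the 3 included, was 0.049, and it was 0.93 with no scaling and -0.60 with normexp. Leaving out 1 kidney gave -0.23 (without contralateral kidney 3) to 0.33 (without obstructed kidney 3), and -0.21 without obstructed kidney 2, -0.039 without obstructed kidney 4 and 0.26 without contralateral kidney 1, so its sign is not settled. The number of miRNAs called by limma, 33, became 17 with no filter on dim miRNAs, 3 with no scaling, 3 with quantile normalization, 69 within slide row 2, and, without contralateral kidney 2, 2 with normexp at offset 50 and 18 at offset 0. It was 0 with normexp at offset 50 and at offset 0, with scaling over all mouse probes and within slide row 1, where 54, 40, 56 and 1 miRNAs had an unadjusted p under 0.05. Leaving out 1 kidney gave 0 to 113 calls (113 without obstructed kidney 2, 20 without contralateral kidney 2, 14 without obstructed kidney 4, and 0 without any 1 of the others, with 54 to 67 at an unadjusted p under 0.05). With the kidney number as a replicate block, 0 were called and 67 had an unadjusted p under 0.05. The labels do not say that equal numbers mean the same mouse, so the numbers were not taken as pairs. Same-numbered kidneys correlated at -0.35, 0.22, 0.62 and 0.015 in their deviations, which cannot decide whether they were pairs. Dim signal and the 8 arrays limit all of these.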

Other observations

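The arrays also carried 98 probes for miRNAs whose names are not those of mouse miRNAs. By the same marks, 8, 8, 6 and 8 of them were above background on contralateral arrays 1 to 4 and 8, 11, 9 and 13 on obstructed arrays 1 to 4. These probes entered no comparison.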
